A study of Mus musculus with 6 samples.

Results

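GATA-1-repressed progenitor genes were represented here by 10 genes, Kit, Myb, Myc, Hhex, Lyl1, Vim, Samsn1, Cd34, Rgs18 and Ikzf1. Every non-control probe carrying one of these names was taken, which gave 13 of the 55681 probes on the array and 10 of its 34844 gene names. Of these, 12 probes, covering all 10 genes, were among the 30971 probes kept for testing. The name stands for what is known of these genes in maturing red cells and was not checked here, since all arrays were of cells given β-estradiol and none was of cells without it.

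G1E-ER-GATA-1 cells are mouse erythroid progenitors made from cells without a working Gata1 gene. They carry GATA-1 joined to the hormone-binding part of an estrogen receptor, which makes GATA-1 activity, and with it red cell maturation, depend on added β-estradiol. All cells were grown with 2 U per ml erythropoietin, Kit ligand and puromycin and were nucleofected with siRNA at 0 h and at 24 h. They received β-estradiol for 24 h and were harvested at 48 h. The groups were 3 arrays of cells given control siRNA and 3 arrays of cells given SetD8 siRNA, which targets Setd8, the enzyme that adds a single methyl group to lysine 20 of histone H4. The comparison asks how the RNA of these genes differs when cells have less Setd8 while GATA-1 is active. All 6 arrays came from a single cell line, and the labels do not state that the arrays of a group were separate cultures. The p-values therefore reflect array-to-array spread alone, part or all of which may be technical.

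GATA-1 and its relative GATA-2 bind the same short DNA letters. In progenitors GATA-2 occupies many growth and stem cell genes, and as GATA-1 accumulates it replaces GATA-2 there, after which genes such as Kit and Myb are turned down while globin and heme genes are turned up. The 10 members serve different jobs in progenitors: a growth factor receptor (Kit), transcription factors (Myb, Myc, Hhex, Lyl1, Ikzf1), a cytoskeletal filament (Vim), a surface sialomucin (Cd34) and regulators of signalling (Samsn1, Rgs18).

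Levels are given on 2 log2 scales. The first, 75th percentile scaling, is the log2 of the deposited processed signal minus the 75th percentile of its array, so that 0 is the level of a fairly bright probe. The second is the log2 signal after normexp background correction with an offset of 50 and quantile normalization, which draws the differences of dim probes towards 0. A difference is always SetD8 siRNA minus control siRNA, and a probe passed the test where its limma p, adjusted by Benjamini-Hochberg over the 30971 probes, was under 0.05.

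The control arrays were the more uneven in quality. The share of spots well above background ran from 40.2% (control 2) to 82.5% (control 3) among the controls and from 60.3% to 68.6% among the SetD8 arrays. Correlations between arrays of a group were 0.847 to 0.955 for controls and 0.977 to 0.982 for SetD8 arrays at the 75th percentile scaling, and 0.943 to 0.981 and 0.989 to 0.991 after normexp and quantile normalization. Slide 1 held control 1, SetD8 1 and SetD8 2, slide 3 held control 3 and SetD8 3, and control 2 was alone on slide 2. Setd8 itself read 11.49, 11.57 and 11.24 on the control arrays and 9.58, 9.26 and 9.24 on the SetD8 arrays after normexp and quantile normalization. It was lower by 2.07 ± 0.16 (SE; limma adjusted p = 0.0172; 0.0722 with slide as a block), and its other kept probe differed by -1.13. Its difference at the 75th percentile scaling was -2.24 and did not pass, while with slide as a block there it was -1.93 and passed (limma adjusted p = 0.0296). That block fit gave all tested member probes the same standard error of 0.50, so a pass in it is given as a description only. The members' RNA was measured in bulk, so fewer cells expressing a gene and less RNA per cell cannot be told apart.

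Vim alone among the members passed the test, and only on the second scale. After normexp and quantile normalization 1 of the 12 kept member probes passed, higher in SetD8 arrays, beside 0.323% of all probes (0.304% higher and 0.0194% lower). On that scale 3 members, Vim, Samsn1 and Rgs18, had an unadjusted limma p under 0.05, beside 10.3% of all probes. At the 75th percentile scaling 0 members passed, beside 0% of all probes, and 2 members, Vim and Rgs18, had an unadjusted limma p under 0.05, beside 2.5% of all probes. Member differences were above 0 for 11 of 12 probes after normexp and quantile normalization and for 9 of 12 at the 75th percentile scaling, where 52.4% and 56% of all probes were above 0 (47.6% and 44% below). The median over the 10 genes was 0.43 and 0.39 on these scales, beside 0.03 and 0.12 over all 22119 gene names. On probes well above background on all 6 arrays, which leave out Cd34 and Rgs18, the members' median was 0.24 and 0.14. The median over all probes of that kind was -0.03 and -0.11. Cd34 and Rgs18 passed the filter on dim probes through the SetD8 arrays, which is why these counts and medians are descriptions and not support for a direction.

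**Figure D1:**
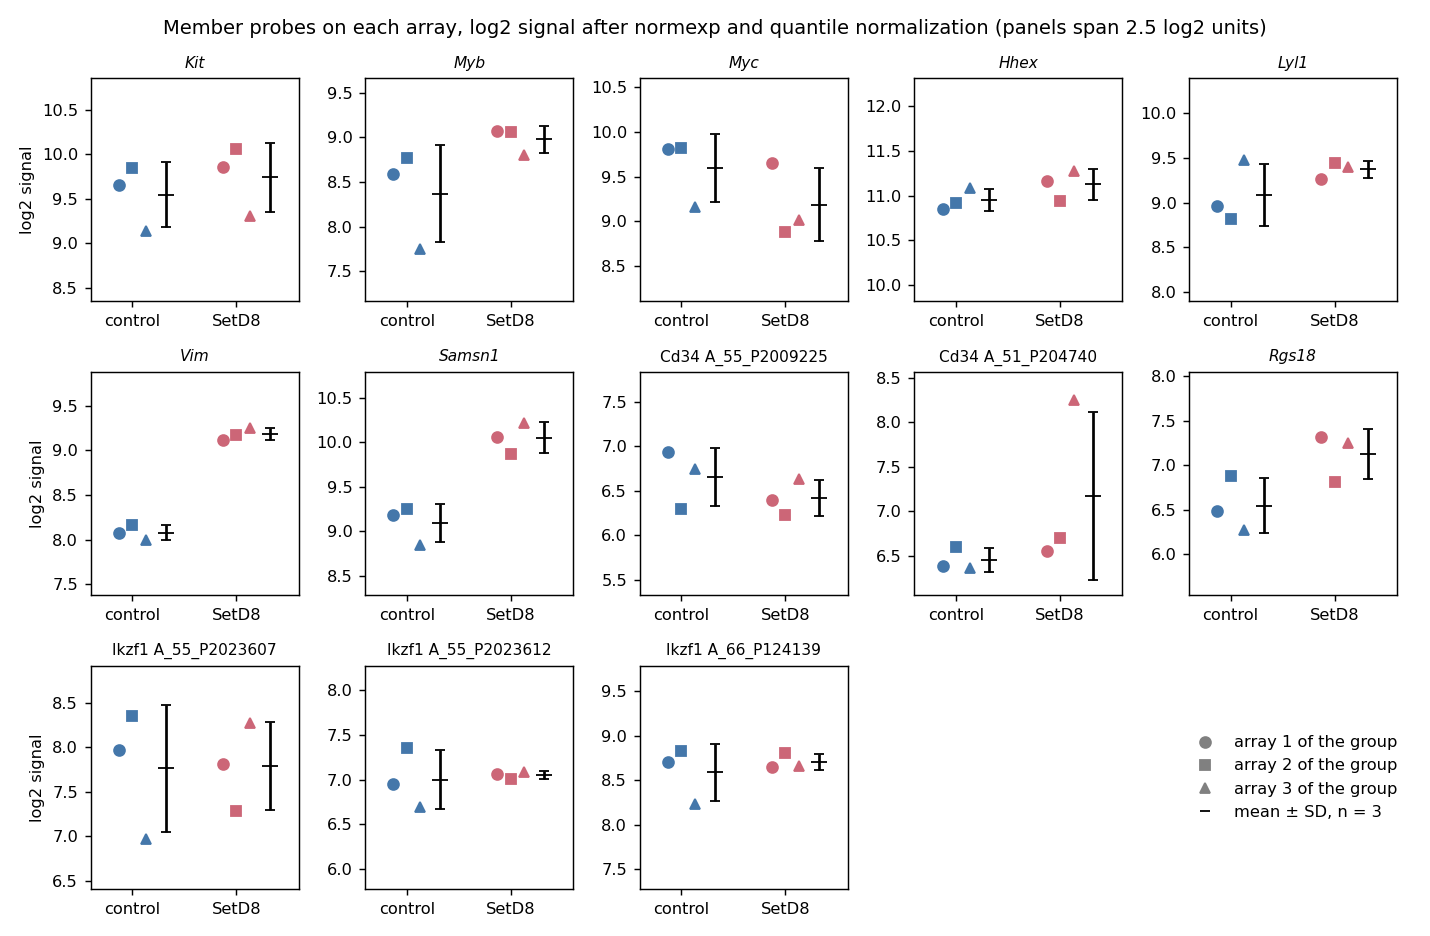
Each panel shows 1 member probe, with log2 signal after normexp and quantile normalization on the vertical axis, control siRNA arrays in blue and SetD8 siRNA arrays in red. Marker shape gives the array number, bars are mean ± SD (n = 3), and every panel spans 2.5 log2 units. Vim, Samsn1 and Myb have no overlap between groups, and the Cd34 probe A_51_P204740 is high on SetD8 3 alone.

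Vim encodes vimentin, the intermediate filament protein of mesenchymal and progenitor cells, which is lost as red cells mature. Its probe A_51_P392687 lies at chr2:13504232-13504291 (mm9, plus strand). The first 30 bases of this probe and of the probes for Samsn1 and Rgs18 are shown because these are the members whose groups did not overlap at the 75th percentile scaling. They are printed 5′ to 3′ in lower case.
Vim A_51_P392687: gcagtttttcaggagcgcaagatagatttg
Samsn1 A_55_P2010271: gtctgttttggctaagtaaacatagttgta
Rgs18 A_52_P541161: tgcttgaacgatgaagatggcatactttca

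The Vim level was 8.07, 8.16 and 8.0 on control arrays 1, 2 and 3, against 9.12, 9.17 and 9.25 on SetD8 1, 2 and 3 after normexp and quantile normalization. Every SetD8 array lay above every control array, and the arrays of each group lay close together, with SDs of 0.08 and 0.07. The difference was 1.10 ± 0.12 (SE), a 2.15-fold rise (limma adjusted p = 0.0267, rank 61 of all probes). Within slide 1 the difference was 1.07 and within slide 3 it was 1.26. Its levels at the 75th percentile scaling were 0.21, 0.48 and 0.07 on the controls and 1.40, 1.46 and 1.62 on the SetD8 arrays. The groups again did not overlap, and the difference was 1.24 ± 0.32 (limma p = 0.00671, adjusted p = 0.931, exact permutation p = 0.1).

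The size of the Vim difference varied little on the normexp and quantile scale, while its call came and went. It lay between 1.06 and 1.21 over 14 alternatives, with limma adjusted p from 0.000186 to 0.313. The lowest adjusted p was with array weights, which did not converge. The call was lost with slide as a block (1.15, adjusted p = 0.122), with an offset of 16 (1.21, adjusted p = 0.0546), without control 1 (adjusted p = 0.245) and without SetD8 1, 2 or 3 (adjusted p = 0.181, 0.208 and 0.176). Without control 2 or control 3 Vim still passed (adjusted p = 0.0421 and 0.0451).

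Samsn1 encodes an adaptor protein with SH3 and SAM domains that is expressed in blood cells and dampens signalling in lymphocytes. A single probe carries its name, A_55_P2010271 at chr16:75859113-75859172 (mm9, minus strand). Its level was 9.18, 9.25 and 8.85 on control arrays 1, 2 and 3, against 10.06, 9.87 and 10.22 on the SetD8 arrays after normexp and quantile normalization. All SetD8 arrays lay above all controls. The difference was 0.96 ± 0.17, or 1.94-fold, and missed the threshold (limma adjusted p = 0.0962), being 0.79 within slide 1 and 1.37 within slide 3. Its levels at the 75th percentile scaling were 1.71, 2.18 and 0.81 against 2.48, 2.27 and 2.81, again without overlap, and the difference was 0.95 ± 0.45 (adjusted p = 0.931). Samsn1 passed in a test limited to probes that every array detected above background (adjusted p = 0.0407) and with trend and robust moderation (adjusted p = 0.0174), in both cases after normexp and quantile normalization. Its adjusted p ran from 0.00112 to 0.430 over 14 alternatives on that scale, the lowest again with array weights.

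Rgs18 encodes a regulator of G protein signalling found in megakaryocytes, platelets and progenitors. Its probe A_52_P541161 lies at chr1:146600137-146600196 (mm9, minus strand) and was dim, with a processed signal of 18.2, 12 and 32.9 on control arrays 1, 2 and 3, against 142, 43.2 and 94.4 on SetD8 1, 2 and 3. It was well above background on 5 arrays, all but control 2. At the 75th percentile scaling the levels were -3.20, -3.66 and -2.89 on the controls and -0.60, -1.48 and -0.82 on the SetD8 arrays. The groups did not overlap, and the difference was 2.29 ± 0.40 (limma p = 0.000823, adjusted p = 0.823, exact permutation p = 0.1), no fold being given because control 2 was not above background. After normexp and quantile normalization the levels were 6.49, 6.88 and 6.27 against 7.32, 6.81 and 7.26. There SetD8 2 lay below control 2, so the groups overlapped, and the difference was 0.58 ± 0.22 (limma p = 0.0329, adjusted p = 0.408, exact permutation p = 0.2).

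With slide as a block the Rgs18 difference was 2.12 at the 75th percentile scaling (limma adjusted p = 0.00796) and 0.75 after normexp and quantile normalization (adjusted p = 0.387). Without control 2 it was 2.08 (adjusted p = 0.0163) and 0.75 (adjusted p = 0.252) on these scales. On the first scale adjusted p ran from 0.000602 to 1.00 over 17 alternatives, the lowest being with array weights, which did not converge. Rgs18 was kept for testing only through the SetD8 arrays, where it is high. The block fit on the first scale also gave all tested member probes 1 shared standard error of 0.50. Among them its adjusted p thus followed the size of the difference alone, so the values below the threshold are a description and not support for a rise. The slide block uses nothing from control 2, which has its slide to itself, and on that scale it called 127 probes, 0.41% of all. Within slide 1 the difference was 2.16 and within slide 3 it was 2.07 on the first scale.

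On each scale 3 members did not overlap between groups, all higher in SetD8 arrays. These were Vim, Samsn1 and Rgs18 at the 75th percentile scaling, where 7.56% of all probes did not overlap (4.54% higher and 3.02% lower), and Vim, Samsn1 and Myb after normexp and quantile normalization, where 17.7% did not (9.48% higher and 8.19% lower). With 3 arrays against 3, the exact two-sided permutation test of a single probe cannot go below 0.1, the value each of these probes had on the scale named.

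**Figure D2:**
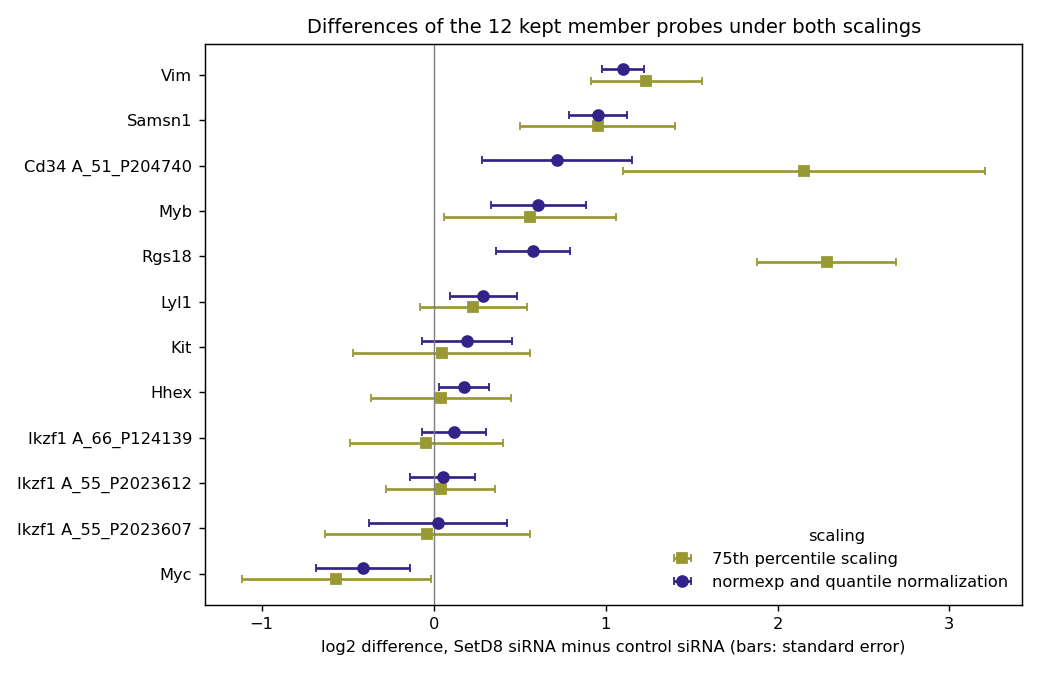
The horizontal axis is the log2 difference, SetD8 siRNA minus control siRNA, of each of the 12 kept member probes, with bars for the limma standard error. Squares are the 75th percentile scaling and circles are normexp and quantile normalization. Vim and Samsn1 have similar differences on both scales, while the dim probes Rgs18 and Cd34 are at 2.29 and 2.15 on the first and at 0.58 and 0.72 on the second.

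Cd34 encodes a surface sialomucin that marks stem cells, early progenitors and blood vessel lining. Its probes, A_55_P2009225 at chr1:196785280-196785339 and A_51_P204740 at chr1:196787392-196787451 (mm9, plus strand), lie 2112 bases apart. Their first 30 bases are shown because the probes did not follow each other across arrays.
Cd34 A_55_P2009225: taaacaagatatcgggagccaccagagcta
Cd34 A_51_P204740: ccagagatgagaggattgggtgtattctct

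A_51_P204740 was at 6.39, 6.60 and 6.37 on control arrays 1, 2 and 3, against 6.56, 6.70 and 8.25 on SetD8 1, 2 and 3 after normexp and quantile normalization. Only SetD8 3 stood high, and the groups overlapped. The difference was 0.72 ± 0.44 (limma adjusted p = 0.691) and 0.18 without SetD8 3. At the 75th percentile scaling the levels were -3.90, -5.26 and -2.68 against -2.98, -2.80 and 0.40, and the difference was 2.15 ± 1.05 (adjusted p = 0.931), or 1.06 without SetD8 3. Within slide 1 it was 1.01 and within slide 3 it was 3.08. With slide as a block it was 1.90 on that scale (adjusted p = 0.0376, from the standard error of 0.50 shared with the other members) and 0.95 after normexp and quantile normalization (adjusted p = 0.535). The probe was not well above background on controls 1 and 2 and was kept only through the SetD8 arrays, so the value below the threshold is no support for a rise.

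The other Cd34 probe, A_55_P2009225, was well above background on controls 1 and 3 and on SetD8 1 and 3 and was not tested. Its levels after normexp and quantile normalization were 6.93, 6.30 and 6.75 on the controls and 6.39, 6.23 and 6.63 on the SetD8 arrays, so SetD8 3 did not stand out. SetD8 3 also stood high for the collagen genes Col1a2 and Col3a1, which fibroblasts and other stromal cells express, but not for the endothelial marker Pecam1. Col1a2 was at 7.09, 6.78 and 7.33 on the controls and at 7.31, 7.38 and 9.14 on SetD8 1, 2 and 3. Col3a1 was at 6.36, 6.29 and 6.43 and at 6.56, 6.71 and 8.34 in the same order. Of 9 stromal and endothelial markers 4 were measured (Col1a2, Col3a1, Pecam1 and Kdr), Col1a1, Cdh5, Dcn, Lum and Thy1 being too dim. The summed level of all 9 on the linear scale of the 75th percentile setting was 16.8 to 18.2 in controls. It was 15.2, 24.6 and 25.4 on SetD8 1, 2 and 3, so in this sum SetD8 3 did not stand apart from SetD8 2. The part of other cells in the Cd34 signal was not tested.

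**Figure D3:**
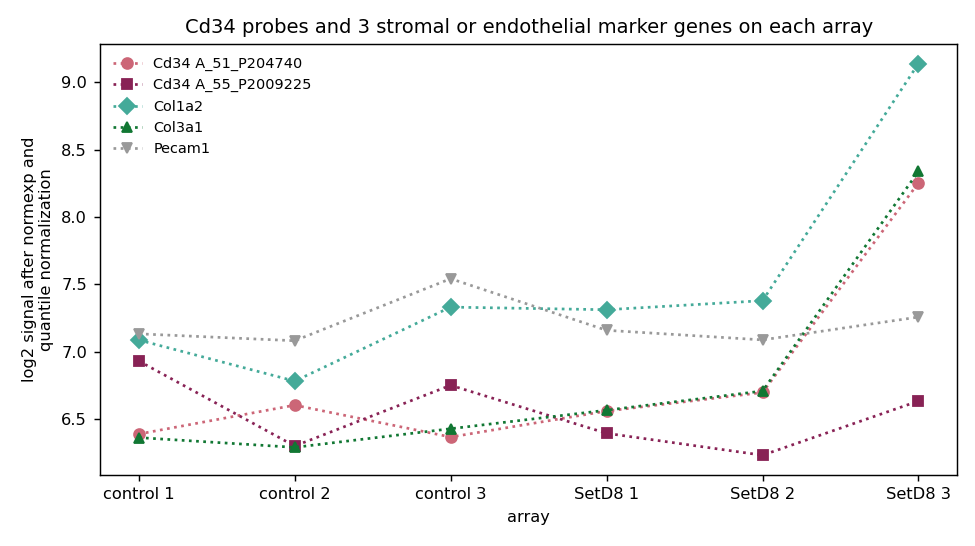
The vertical axis is log2 signal after normexp and quantile normalization and the horizontal axis lists the 6 arrays, with dotted lines joining the values of 1 probe as a guide for the eye. Cd34 A_51_P204740, Col1a2 and Col3a1 are high on SetD8 3 alone, while Cd34 A_55_P2009225 and Pecam1 are not.

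Myb encodes the transcription factor c-Myb, which keeps erythroid progenitors dividing and falls as they mature. Its probe A_55_P2017826 (chr10:20844736-20844795, mm9, minus strand) was at 8.58, 8.77 and 7.75 on control arrays 1, 2 and 3, against 9.07, 9.06 and 8.80 on the SetD8 arrays after normexp and quantile normalization. The groups did not overlap, though SetD8 3 lay just above control 2, and control 3 was the lowest array. The difference was 0.61 ± 0.27 (limma adjusted p = 0.526). At the 75th percentile scaling the levels were 1.04, 1.64 and -0.12 against 1.47, 1.48 and 1.28, which overlap, and the difference was 0.56 ± 0.50 (adjusted p = 0.931).

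Myc encodes c-Myc, a factor that drives growth and division. Its probe A_52_P108346, spotted 2 times at chr15:61821417-61821476 (mm9, plus strand), was at 9.81, 9.82 and 9.15 on the controls and 9.65, 8.88 and 9.02 on the SetD8 arrays after normexp and quantile normalization. It was the only tested member with a negative difference on that scale, -0.41 ± 0.27 (limma adjusted p = 0.725), with a 95% interval of -1.06 to 0.24. The difference at the 75th percentile scaling was -0.57 ± 0.55, while within slide 3 it was 0.39.

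Kit encodes the receptor for the Kit ligand on which early erythroid cells depend. Its probe A_66_P128434, spotted 2 times at chr5:76052394-76052453 (mm9, plus strand), was at 9.65, 9.84 and 9.14 on the controls and 9.85, 10.06 and 9.31 on the SetD8 arrays after normexp and quantile normalization. Both groups had their lowest value on slide 3. The difference was 0.19 ± 0.26 (limma adjusted p = 0.883), with a 95% interval of -0.43 to 0.82, which holds both a rise and a fall. It was 0.05 ± 0.51 at the 75th percentile scaling.

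Hhex encodes a homeobox factor of early blood and liver cells. After normexp and quantile normalization its probe A_52_P528600 (chr19:37514969-37515028, mm9, plus strand) was at 10.85, 10.92 and 11.08 on the controls and 11.16, 10.94 and 11.28 on the SetD8 arrays. The difference was 0.18 ± 0.15 (limma adjusted p = 0.797), and on the other scale it was 0.04 ± 0.41.

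Lyl1, a basic helix-loop-helix factor closely related to Tal1, was at 8.96, 8.81 and 9.47 on the controls and 9.27, 9.45 and 9.40 on the SetD8 arrays after normexp and quantile normalization, by its probe A_51_P143190 (chr8:87228531-87228590, mm9, plus strand). The difference was 0.29 ± 0.20 (limma adjusted p = 0.730), of opposite sign within slide 3 (-0.07) to within slide 1 (0.39). It was 0.23 ± 0.31 at the 75th percentile scaling.

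Ikzf1 encodes Ikaros, a zinc finger factor of lymphoid and progenitor cells. It had 3 probes, A_55_P2023607 (chr11:11661344-11661403), A_55_P2023612 (chr11:11669493-11669552) and A_66_P124139 (chr11:11672828-11672887, all mm9, plus strand), 8149, 3335 and, between the outer pair, 11484 bases apart. Their differences were 0.02 ± 0.40, 0.05 ± 0.19 and 0.12 ± 0.19 after normexp and quantile normalization and -0.04, 0.04 and -0.04 at the 75th percentile scaling. All limma adjusted p on the first of these scales were 0.903 or higher, and A_55_P2023607 and A_66_P124139 changed sign between the scales. The groups overlapped in each of the 3 comparisons between probes, and the adjusted exact permutation p was 1 for each after normexp and quantile normalization and 0.9 at the 75th percentile scaling. Counted between pairs of probes after normexp and quantile normalization, the differences in response were -0.03 ± 0.36, -0.09 ± 0.40 and -0.06 ± 0.11, each smaller than its standard error.

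**Figure D4:**
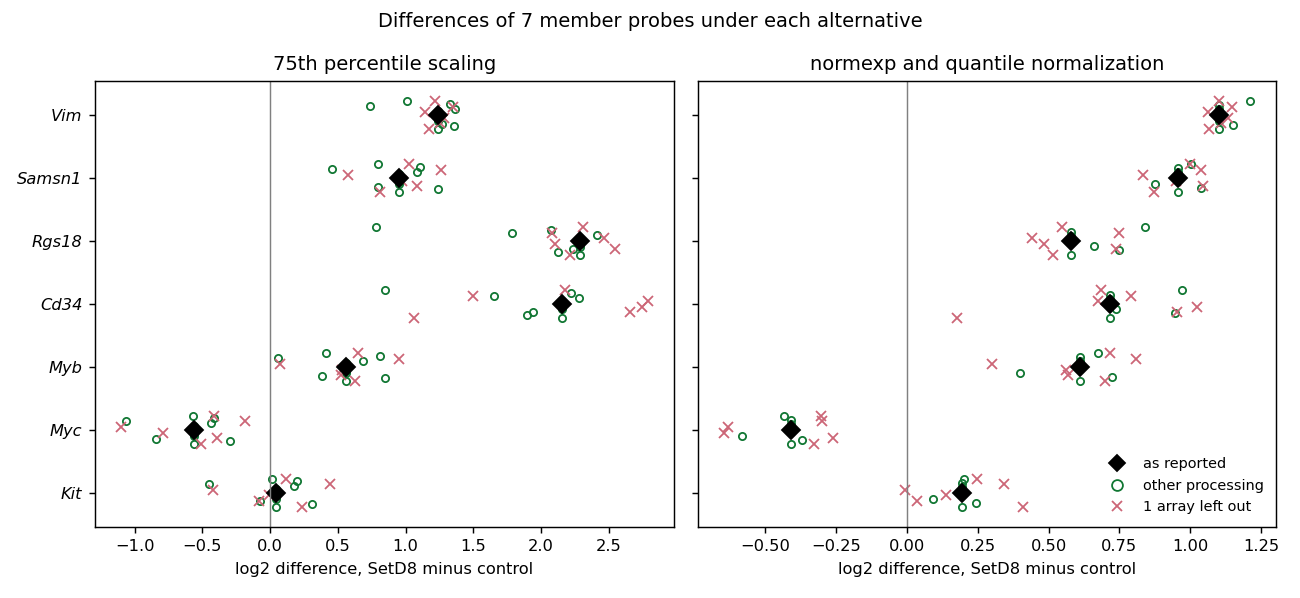
The horizontal axes give the log2 difference, SetD8 siRNA minus control siRNA, of 7 member probes, with the reported value as a filled diamond, other processing as open circles and fits without 1 array as crosses. Vim and Samsn1 stay above 0 and Myc below 0 in every fit shown on both scales, whereas Kit crosses 0.

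Promoters are shown for Vim and Samsn1, the members with the largest differences after normexp and quantile normalization, and for Cd34, because GATA factors bind the letters AGATAA or its variants. Those searched were AGATAA itself, then AGATAG with a final G, and the same words with a first T, which are TGATAA as well as TGATAG. The 250 bases before each start are from RefSeq on GRCm38.p6, 5′ to 3′ on the gene's strand, at chr2:13574061-13574310 (Vim, plus), chr16:75909267-75909516 (Samsn1, minus) and chr1:194938571-194938820 (Cd34, plus). Capitals mark a match, which in Samsn1 and Cd34 is on the opposite strand.
Vim: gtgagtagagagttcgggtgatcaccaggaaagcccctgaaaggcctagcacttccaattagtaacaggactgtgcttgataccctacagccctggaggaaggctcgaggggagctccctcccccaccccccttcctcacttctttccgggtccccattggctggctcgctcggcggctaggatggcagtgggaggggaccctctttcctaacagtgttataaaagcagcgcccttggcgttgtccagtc
Samsn1: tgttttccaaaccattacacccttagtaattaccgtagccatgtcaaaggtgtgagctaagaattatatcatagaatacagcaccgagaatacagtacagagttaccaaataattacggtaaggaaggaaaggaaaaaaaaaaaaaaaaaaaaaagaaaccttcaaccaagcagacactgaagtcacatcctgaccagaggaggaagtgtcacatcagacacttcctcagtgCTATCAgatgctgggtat
Cd34: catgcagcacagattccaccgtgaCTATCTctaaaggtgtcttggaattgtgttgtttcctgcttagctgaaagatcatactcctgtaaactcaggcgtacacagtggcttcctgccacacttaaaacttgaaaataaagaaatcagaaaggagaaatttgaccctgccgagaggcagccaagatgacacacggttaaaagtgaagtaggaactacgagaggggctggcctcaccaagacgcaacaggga

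Samsn1 held 1 TGATAG, read on the opposite strand and starting 18 bases before the gene start, Cd34 held 1 AGATAG starting 226 bases before it, and Vim held none. In all, 8 of the 10 members were in the promoter table, with 10 promoters. Of these 10, 2 (20.0%) held at least 1 of the 4 words on either strand, beside 8718 of 32851 promoters in the table (26.5%). The 10 include 2 overlapping Kit promoters without a match (chr5:75574737-75574986 and chr5:75574741-75574990), so nearly the same bases were counted more than once. By gene, the matches were in 2 of the 8 members. No 2 of the 4 words can match at the same position of a strand, since each pair differs in its first or last letter. The median GC content was 65.4% in members and 52.4% in all promoters. A match is a description of letters and not of binding.

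The genes with the pattern most like Vim were sought among all named kept probes by Pearson r over the 6 arrays, after normexp and quantile normalization. The 5 highest were Mst1 (r = 0.998), Kank3 (0.998), Scml2 (0.997), Usp20 (0.997) and Dcxr (0.997). Mst1 was higher by 2.03 ± 0.13 (limma adjusted p = 0.0105), Kank3 by 3.04 ± 0.23 (adjusted p = 0.0172), Dcxr by 2.61 ± 0.15 (adjusted p = 0.0105) and Usp20 by 1.03 ± 0.13 (adjusted p = 0.0375), while Scml2 did not pass (0.60 ± 0.12, adjusted p = 0.116). With only 6 arrays split into 2 groups, such values follow the group difference itself and are given as a description.

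Of 22 other GATA-1-repressed and progenitor genes 17 were measured, and 0 of them passed the limma test on either scale. On the normexp and quantile scale 10 differences were above 0 and 7 below, with a median of 0.13 beside 0.03 over all gene names, and 2 genes had an unadjusted p under 0.05 beside 10.3% of all probes. Values in this and the following paragraphs on other genes are on that scale unless said otherwise. Gata2, the factor GATA-1 displaces, differed by -0.00 (limma adjusted p = 0.999) and Gata1 by -0.08 (adjusted p = 0.904). Meis1, a homeobox factor of stem cells, was at 8.96, 8.93 and 8.14 on the controls and 9.84, 9.76 and 9.72 on the SetD8 arrays, a difference of 1.10 ± 0.24 that missed the threshold (adjusted p = 0.147). Spi1, which encodes PU.1, differed by 0.63 ± 0.18 (adjusted p = 0.262).

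All 21 GATA-1-activated genes were measured and 0 passed, with 12 differences above 0 and 9 below and 3 unadjusted limma p under 0.05. At the 75th percentile scaling 5 were above 0 and 16 below, so the balance of signs turned with the scale. Tspo2, a membrane protein of maturing erythroblasts, was nearest the threshold (0.99 ± 0.14, limma adjusted p = 0.0535). Slc4a1, the red cell anion exchanger, was at -1.19 ± 0.38 (adjusted p = 0.314), and Hbb-b1, a β-globin gene, at 1.20 ± 0.48 (adjusted p = 0.454). At the 75th percentile scaling Hbb-b1 was highest on SetD8 3. It read 6.25, 6.40 and 6.34 on the controls there and 6.84, 7.01 and 8.47 on SetD8 1, 2 and 3. Among 24 GATA-1 cofactors 0 passed, 5 had an unadjusted p under 0.05 and 18 differences were below 0, led by Suz12, a Polycomb subunit (-0.54 ± 0.18, adjusted p = 0.327). The 75th percentile scaling called 0 of these genes. There 23 of the 24 cofactor differences were below 0, beside 44% of all probes, or 16 of the 24 with slide as a block. The 44% includes dim probes. On this scale the median difference was 0.09 over all kept probes and -0.11 over those well above background on all 6 arrays. The part of brightness in the cofactor signs was not tested.

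Relatives and partners of the members held 0 genes that passed the limma test on either scale. Those of Vim, Cd34, Samsn1 and Rgs18 had 10 of 16 measured, 7 above 0 and 3 below, with a median of 0.44, and 5 had an unadjusted p under 0.05. Rgs19, a relative of Rgs18, was at 8.69, 8.89 and 7.90 on the controls and 9.90, 10.12 and 9.71 on the SetD8 arrays, the largest difference among the relatives (1.42 ± 0.27, limma adjusted p = 0.118). Rgs10 differed by 0.67 ± 0.16 (adjusted p = 0.189), and the nuclear lamin genes, kin of Vim, differed in sign, with Lmna at 0.40 ± 0.14 (adjusted p = 0.386) and Lmnb1 at -0.68 ± 0.14 (adjusted p = 0.131). Of 13 relatives and partners of Myc and Myb 9 were measured, 5 above 0 and 4 below, with 3 unadjusted p under 0.05. Mxd4, which opposes Myc at its sites, differed by 0.70 ± 0.15 (adjusted p = 0.147), and Mybl2, a relative of Myb, by -0.44 ± 0.19 (adjusted p = 0.489). Of 17 genes for the Kit ligand, related receptors and signalling 14 were measured, 11 above 0 and 3 below, and of 12 relatives of Ikzf1, Hhex and Lyl1 11 were measured, 7 above 0 and 4 below, with 3 unadjusted p under 0.05 in each list. Ptpn6, a phosphatase that dampens Kit signalling, differed by 0.84 ± 0.14 (adjusted p = 0.0900), and Tle3, a corepressor that Hhex can recruit, by -0.57 ± 0.12 (adjusted p = 0.145).

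Markers of other blood cells were measured because several members are expressed in them. Of 9 megakaryocyte markers 8 were measured and 7 were above 0, with a median of 0.56 here and 0.63 at the 75th percentile scaling. On both scales 0 passed the limma test, and 3 and 1 had an unadjusted p under 0.05. Gp1ba differed by 0.79 ± 0.14 (limma adjusted p = 0.0997), Itgb3 by 0.80 ± 0.14 (adjusted p = 0.0987), though its other probe differed by -0.07, and Gp5 by 0.82 ± 0.16 (adjusted p = 0.113). The summed level of all 9, on the linear scale used above for stromal markers, was 75.4 to 94.9 in controls and 86.8, 100.3 and 175 on SetD8 1, 2 and 3. SetD8 3 alone set the highest value, and Pf4, a platelet chemokine gene chosen here after its values were seen, was at 5.26, 5.50 and 6.73 on these arrays at the 75th percentile scaling. The part of these markers in the Rgs18 signal was not tested. Mast cell markers were dim, with 4 of 9 measured and a summed level of all 9 of 2.82 to 7.08 in controls and 4.57 to 6.67 in SetD8 arrays. Of 10 granulocyte and macrophage markers 6 were measured, and Cd68 was nearest the threshold (0.73 ± 0.12, adjusted p = 0.0836) by the brighter of its probes, the other being at -0.15. Of 9 lymphoid markers 7 were measured, with a summed level of all 9 of 7.45 to 13 in controls and 12.7 to 19.7 in SetD8 arrays, and 0 passed with 1 unadjusted p under 0.05. All 9 erythroid markers were measured, at a summed level of 2015 to 4363 in controls and 2278 to 3386 in SetD8 arrays, so the labelled erythroid line carried its defining markers, and 0 of them passed with 2 unadjusted p under 0.05.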

How the data were processed

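RNA was measured in 6 samples on 1-colour Cy3 Agilent arrays. Per the file headers, the scanner files deposited by the authors give linear intensity for every spot and place probes on mm9. The authors' series matrix also holds intensity and equals the processed signal of each array within 0.005 (array medians were 28.8, 7.15 and 76.1 in the control group, then 45.3, 23.9 and 30.1 in the SetD8 group), so it is not normalized between arrays. The submitters' processing notes name limma, and how the authors normalized is not given in the sources used.

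From 62976 spots an array, control spots and 139 to 176 outlier spots were left out and replicate spots averaged. A probe stayed in where 1 group or both had it well above background on each of its arrays. Groups and replicate numbers came from the titles. Both scales were fitted over all kept probes in R 4.3.3 by lmFit and eBayes of limma 3.58.1, two-sided and without a block, with Benjamini-Hochberg adjustment, and the fit was tested on simulated data. Reading and plotting used Python 3.11.15 with numpy 2.4.6, matplotlib 3.10.9 and pandas 2.3.3. The number of arrays limits the precision.

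Members, lists and the second scale were chosen with earlier results of these data known. Named genes are every member probe, up to 4 genes a list with the smallest p on the second scale, Setd8, Gata1 and Gata2, and the 5 genes most like the leading member. A listed gene is represented by its brightest kept probe. Alternatives were other normalizations, filters, moderation, array weights, blocks and leaving out each array. Promoters were matched by symbol to RefSeq.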

Additional observations from a re-analysis of the deposited data

How the results depend on the processing

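Numbers of probes called at the 75th percentile scaling (0 as reported, 774 at an unadjusted limma p under 0.05) became 24 with normexp, 122 on probes well above background on all 6 arrays, 4 with trend and robust moderation, 11373 with array weights, 127 with slide as a block and 0 to 103 without 1 array, the highest without control 2. Member probes called there became 6 with array weights, 2 with slide as a block and 0 to 1 without 1 array. The members' median became -0.10 with median scaling, where the median of all probes was -0.41, and 0.13 to 0.70 without 1 array. After normexp and quantile normalization the 100 probes called became 15 with an offset of 16, 367 on probes well above background on all arrays, 800 with trend and robust moderation, 7168 with array weights, 0 with slide as a block (2872 unadjusted) and 0 to 106 without 1 array, being 0 without control 1 or any SetD8 array. The 1 member called there became 0 with an offset of 16, 2 on well-detected probes, 2 with trend and robust moderation, 7 with array weights, 0 with slide as a block and 0 to 1 without 1 array. The members' median became 0.24 on well-detected probes, which leave out Cd34 and Rgs18 and had an all-probe median of -0.03. It became 0.34 to 0.55 without 1 array. Array weights did not converge. On the first scale they gave control 1 a weight of 142090000 against 0.0042 to 0.082 for the other arrays. On the second scale it was 93.3 against 0.146 to 0.899, so counts and adjusted p with array weights rest on 1 control.

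Signs turned at the 75th percentile scaling for Ikzf1 A_55_P2023607 and A_66_P124139 with quantile normalization (0.22 and 0.12), the percentile over detected probes (0.093 and 0.086) and slide as a block (0.42 and 0.22), for Kit (-0.45), Hhex (-0.46), Lyl1 (-0.27) and Ikzf1 A_55_P2023612 (-0.46) with median scaling, and for Kit with array weights (-0.075). Without 1 array they ranged from -0.55 to 0.41 for A_55_P2023607, -0.43 to 0.29 for A_66_P124139, -0.046 to 0.14 for A_55_P2023612, -0.42 to 0.44 for Kit and -0.24 to 0.33 for Hhex. After normexp and quantile normalization A_55_P2023607 and A_66_P124139 turned with array weights (-0.17 and -0.0035), and without 1 array the ranges were -0.37 to 0.32, -0.063 to 0.24, -0.10 to 0.23 for A_55_P2023612 and -0.0080 to 0.41 for Kit. The cause of these changes was not tested. The differences of Vim, Samsn1, Myb, Myc, Rgs18 and Cd34 A_51_P204740 kept their sign in every fit that held them, on both scales. The other Cd34 probe, A_55_P2009225, went the other way, with overlapping groups. Its mean was 6.42 in SetD8 arrays against 6.66 in controls after normexp and quantile normalization. At the 75th percentile scaling it was -3.17 against -2.71. With the replicate number as a block (a replicate block), 0 probes and 0 members were called on both scales, 2396 and 380 probes being under an unadjusted p of 0.05, and Vim was 1.10 with a limma adjusted p of 0.313 on the second scale. To see whether the numbers pair the samples, the group mean of each probe was first subtracted from its values. What remained correlated between same-numbered samples at 0.23, -0.28 and -0.42 on the first scale and 0.15, -0.28 and -0.29 on the second. Replicate 1 had its own number as best match on both scales, while the other replicates did not. With so few arrays in each group, and controls of uneven quality, these correlations cannot decide whether the numbers pair the samples. Dim probes limit Cd34 and Rgs18, which were not well above background on 2 and 1 of the 6 arrays.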
